A study of Mus musculus with 12 samples.

Results

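The liver X receptor (LXR) target genes described here are Abca1, Abcg1, Apoe, Nr1h3, Mylip, Lpcat3, Srebf1, Fasn, Scd1 and Scd2. These 10 genes of cholesterol efflux and fatty acid synthesis were taken by symbol from the 54532 genes of the count table, and all 10 passed the filter on low counts that left 14506 genes for testing. The libraries were made from total RNA of resident peritoneal macrophages, the macrophages that live in the abdominal cavity, harvested from C57BL/6 mice and kept in DMEM for 24 h. The 4 groups, with 3 libraries each, were MOPS medium with LPS, HEPES medium with LPS, MOPS medium without LPS and HEPES medium without LPS. LPS, the bacterial cell wall component that macrophages sense through Toll-like receptor signalling, was given at 10 ng/ml for 2 h. MOPS and HEPES are pH buffers. The sample labels give the buffer alone. The series design names pH 6.8 and 7.4 in the same order as MOPS and HEPES, and read in that order buffer and pH cannot be told apart. Libraries carry the numbers 1 to 12 across the groups. The labels do not say whether they came from separate animals or cultures, so each p-value reflects only how far these libraries spread, which may be technical.

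LXRα, the product of Nr1h3, and LXRβ, the product of Nr1h2, are nuclear receptors that bind oxysterols and desmosterol and act on DNA with a retinoid X receptor (RXR) partner. In macrophages they are known for turning on the export of cholesterol through ABCA1 and ABCG1, the secretion of apolipoprotein E, and the degradation of lipoprotein receptors through the ubiquitin ligase MYLIP, also called IDOL. They also raise Srebf1, whose product SREBP-1c drives the fatty acid synthesis genes, and Lpcat3, which puts polyunsaturated chains into phospholipids.

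The positions below are those of the count table, on mm10, and all 10 genes are protein-coding. Of the efflux genes, Abca1 (ENSMUSG00000015243) lies at chr4:53030787-53159895 on the minus strand, Abcg1 (ENSMUSG00000024030) at chr17:31057698-31115777 on the plus strand and Apoe (ENSMUSG00000002985) at chr7:19696109-19699188 on the minus strand. The receptor gene Nr1h3 (ENSMUSG00000002108) lies at chr2:91184061-91202834 on the minus strand. Mylip (ENSMUSG00000038175) lies at chr13:45389742-45412022 and Lpcat3 (ENSMUSG00000004270) at chr6:124663027-124704418, both on the plus strand. Of the lipogenic genes, Srebf1 (ENSMUSG00000020538) lies at chr11:60199089-60222581 and Fasn (ENSMUSG00000025153) at chr11:120805846-120824547, both on the minus strand. Scd1 (ENSMUSG00000037071) and Scd2 (ENSMUSG00000025203) are neighbours, at chr19:44394451-44407709 on the minus strand and chr19:44293676-44306864 on the plus strand.

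LXR and RXR bind a paired repeat of a short motif, and 3 of the 10 genes held its letters just upstream of a transcription start. RefSeq promoter windows on GRCm38.p6 were matched for 7 of the 10 genes, giving 12 windows because Nr1h3, Apoe and Srebf1 have several starts, and the 250 bases before each start were searched on both strands. An LXR element, spelled GGTNA, then any 5 bases, then GGTNA, was found in 3 of the 12 windows and in 0.621% of all 32851 mouse windows. These stretches are shown, 5′ to 3′ on the strand of the gene, because they carry the element in an efflux gene and in 2 lipogenic genes. The capitals mark the match, which lies on the opposite strand and therefore reads as the reverse complement.
Abca1, chr4:53159918-53159992, minus strand: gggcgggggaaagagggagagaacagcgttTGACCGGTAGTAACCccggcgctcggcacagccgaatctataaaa
Srebf1, chr11:60210609-60210683, minus strand: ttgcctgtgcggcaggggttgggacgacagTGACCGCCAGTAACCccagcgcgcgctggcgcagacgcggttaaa
Fasn, chr11:120824728-120824797, minus strand: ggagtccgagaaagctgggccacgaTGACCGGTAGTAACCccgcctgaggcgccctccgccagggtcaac

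The Abca1 and Fasn matches share all 15 letters. The Abca1 match lies 67 to 53 bases before the start, the Fasn match 225 to 211 bases and the Srebf1 match 182 to 168 bases, the last before a start inside the gene. The sterol element TCACNCCAC, bound by SREBPs, was in none of the 12 windows and in 1.05% of all windows. CCAAT, the letters bound by NF-Y, occurred in 5 of the 12 windows, those of Mylip, Lpcat3, Fasn and 2 of Srebf1, and in 33.8% of all windows. In the Fasn window 2 of its 3 CCAAT matches overlap on opposite strands. CACGTG, an E-box, was in the Abca1 window alone and in 6.02% of all windows. A match of letters is a description and not a bound site.

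Library totals ran from 20114613 to 24734853 counts. Per library, Apoe had 176529 to 413567 counts, while the scarcest of the 10 genes, Nr1h3 and Scd1, went down to 166 counts and Scd2 to 191. Levels below are CPM, each count divided by its library's size on a common scale, with sizes adjusted by edgeR's TMM factors, and tests are edgeR quasi-likelihood tests over all 14506 genes with Benjamini-Hochberg adjustment, called at an adjusted p under 0.05 with no fold minimum. All 8 macrophage markers were detected in every group. Their summed CPM, on library totals, was 14840 to 16718 CPM in MOPS with LPS, 21782 to 23234 CPM in HEPES with LPS, 20070 to 20363 CPM in MOPS without LPS and 31170 to 32319 CPM in HEPES without LPS. Lyz2 made up most of each sum, so the sums mainly follow this gene. It had 10786 to 12532 CPM in MOPS with LPS and 18138 to 19604 CPM in HEPES with LPS. Without LPS it had 15239 to 15415 CPM in MOPS and 25973 to 27105 CPM in HEPES. By the test, on TMM-scaled counts, 1 of the 8 was higher and 4 lower in MOPS with LPS, against HEPES. Without LPS, 2 were higher and 4 lower. Of all genes tested, 53.8% passed with LPS and 49.7% without it. With LPS against untreated cells, 7 were higher and 1 lower in MOPS, and 5 higher and 2 lower in HEPES. Here 69.0% of all genes tested passed in MOPS and 76.9% in HEPES. The sum of the 8 markers on library totals was lower with LPS in both media. The 5 B cell markers also differed by medium, with sums of 93.2 to 100.2 CPM in MOPS with LPS, 18.2 to 20.9 CPM in HEPES with LPS, 221 to 232 CPM in MOPS without LPS and 93.2 to 167 CPM in HEPES without LPS. Their part in the results was not tested. In bulk RNA, fewer cells of a type and less RNA per cell cannot be told apart.

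**Figure D1:**
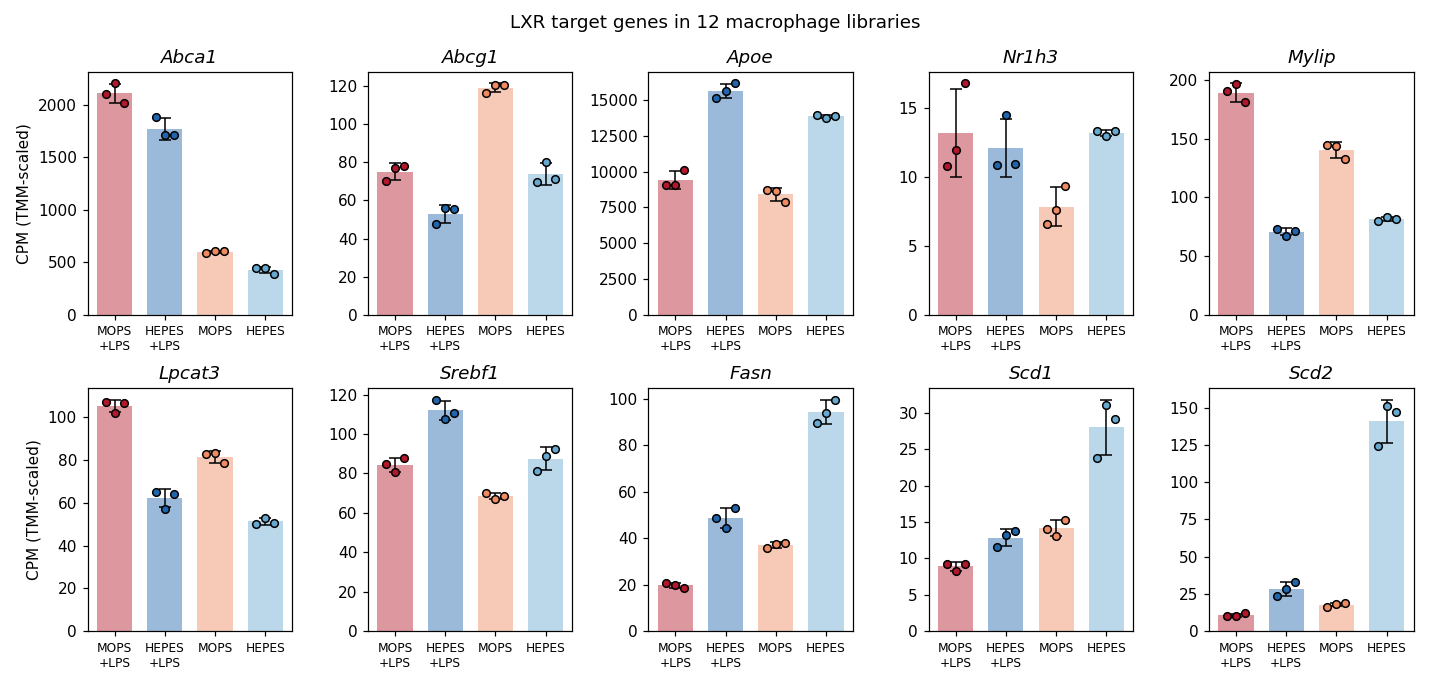
CPM of each of the 10 genes (vertical axes, linear and starting at 0) in the 4 groups, with bars for means, error bars for the SD and points for the 3 libraries of a group. In MOPS the bars of Abca1, Abcg1, Mylip and Lpcat3 stand above those of HEPES with and without LPS, and those of Apoe, Srebf1, Fasn, Scd1 and Scd2 stand below.

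Without LPS the 10 genes moved in both directions with the medium. The transporters Abca1 and Abcg1, the ligase Mylip and the phospholipid enzyme Lpcat3 rose 1.41-fold to 1.72-fold in MOPS over HEPES. Apoe, the receptor gene Nr1h3 and the 4 lipogenic genes Srebf1, Fasn, Scd1 and Scd2 fell, Scd2 the most. All 10 genes therefore passed the test, 4 higher and 6 lower, where 49.7% of all genes tested passed, 24.3% higher and 25.4% lower. The MOPS and HEPES libraries did not overlap for any of the 10, as for 57.6% of all genes tested. The median size of the log2 change was 0.74 over the 10 genes and 0.25 over all genes tested.

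Abca1, which exports cholesterol and phospholipid to lipid-poor apolipoproteins, had 592, 608 and 605 CPM in the MOPS libraries, against 446, 442 and 390.0 CPM in the HEPES libraries. Every MOPS library lay above every HEPES library. The log2 change was 0.50 ± 0.047 (SE; edgeR adjusted p = 1.59e-09). Abcg1, which passes cholesterol to mature HDL particles, had 116, 120.5 and 120.4 CPM in MOPS, against 69.9, 80.3 and 71.4 CPM in HEPES. The groups did not overlap, and the log2 change of 0.69 ± 0.055 (edgeR adjusted p = 4.13e-11) was a rise of 1.61-fold.

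Apoe, which encodes the apolipoprotein that macrophages secrete to carry cholesterol away, moved the other way. It had 8741, 8656 and 7908 CPM in MOPS, against 13962, 13772 and 13904 CPM in HEPES. Apoe is one of the most abundant messages of these cells, and all MOPS libraries lay well below the HEPES libraries. Its log2 change was -0.72 ± 0.043 (edgeR adjusted p = 1.11e-14), or 1.65-fold lower, and its share of all counts was 0.965% to 1.07% in MOPS and 1.64% to 1.68% in HEPES.

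Nr1h3, the gene of LXRα, had 6.56, 7.62 and 9.33 CPM in MOPS, against 13.3, 12.9 and 13.3 CPM in HEPES. The groups did not overlap, and the message was 1.69-fold lower in MOPS (log2 change -0.75 ± 0.16, edgeR adjusted p = 8.74e-04). Nr1h2, the gene of LXRβ and not one of the 10, averaged 107 ± 1.60 CPM in MOPS, against 91.5 ± 0.971 CPM in HEPES (SD, n = 3 each), a log2 change of 0.22 ± 0.039 (edgeR adjusted p = 1.88e-05).

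Mylip had 144, 144 and 133 CPM in MOPS, against 79.6, 83.7 and 81.3 CPM in HEPES, a log2 change of 0.78 ± 0.044 (edgeR adjusted p = 1.50e-15). Lpcat3 had 82.7, 83.4 and 78.4 CPM in MOPS, against 50.2, 53.0 and 50.7 CPM in HEPES, a log2 change of 0.67 ± 0.048 (edgeR adjusted p = 5.14e-13). Both genes were higher in every MOPS library than in any HEPES library. Lpcat3 shares 334 of its 3268 exon bases with Emg1 on the opposite strand. The strand setting of the counting is not given in the sources used here. Whether reads in the shared bases were counted for Lpcat3, for Emg1 or for neither is therefore not known.

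Srebf1 changed least of the lipogenic genes. It had 70.1, 66.8 and 68.4 CPM in MOPS, against 81.2, 89.0 and 92.2 CPM in HEPES, a log2 change of -0.35 ± 0.049 (edgeR adjusted p = 3.24e-07). The groups did not overlap. A gene count does not separate the message of SREBP-1a from that of SREBP-1c, which start at different places. Of the 5634 exon bases of Srebf1, 109 overlap Rai1 on the opposite strand, and the counting of reads there is likewise not known.

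Fasn, the synthase that builds palmitate, had 35.7, 37.6 and 38.0 CPM in MOPS, against 89.4, 93.8 and 99.5 CPM in HEPES. The MOPS libraries lay far below the HEPES libraries, and the level was 2.54-fold lower (log2 change -1.34 ± 0.055, edgeR adjusted p = 5.39e-19). Scd1 and Scd2 encode stearoyl-CoA desaturases, which put a double bond into saturated fatty acids. Scd1 had 14.1, 13.1 and 15.3 CPM in MOPS, against 23.7, 31.1 and 29.1 CPM in HEPES, and was 1.98-fold lower (log2 change -0.99 ± 0.089, edgeR adjusted p = 1.08e-10).

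Scd2 showed the widest difference of the 10, with 16.4, 18.05 and 19.0 CPM in MOPS, against 124, 151 and 147 CPM in HEPES. No library came near the other group. The level was 7.91-fold lower in MOPS (log2 change -2.98 ± 0.12, edgeR adjusted p = 3.61e-09), which put Scd2 at place 40 among the 14506 genes counted from the lowest log2 change. The Scd genes are close copies that lie near each other on chromosome 19, so reads could be divided between them and their separate values are uncertain. The 5 adipocyte markers, from a cell type rich in these enzymes, summed to 0.289 to 0.485 CPM in MOPS and 0 to 0.134 CPM in HEPES, with Cidec, Lep and Cfd at 0 in all 12 libraries.

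**Figure D2:**
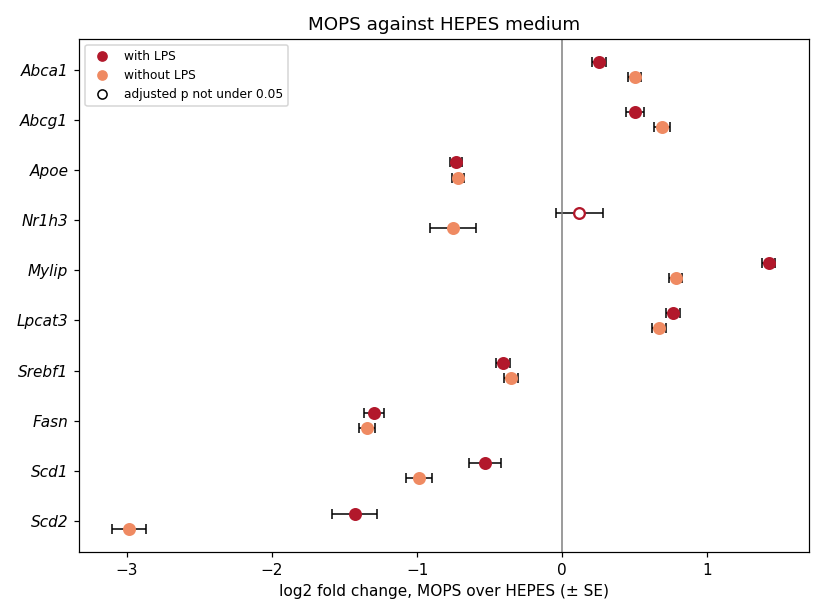
Log2 change of MOPS over HEPES (horizontal axis) for each of the 10 genes, with LPS above and without LPS below, with bars for the SE. Filled points passed an adjusted p under 0.05, and the single unfilled point is Nr1h3 with LPS at 0.12.

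With LPS present in both media, 9 of the 10 genes kept the side they had without it, and Nr1h3 did not pass the test. Abca1, Abcg1, Mylip and Lpcat3 were higher in MOPS and Apoe, Srebf1, Fasn, Scd1 and Scd2 were lower, so that 4 genes rose and 5 fell. Of all genes tested 53.8% passed, 26.9% higher and 26.9% lower. The groups did not overlap for 9 of the 10 genes, as for 58.8% of all genes tested. The median size of the log2 change was 0.63 over the 10 genes and 0.33 over all genes tested. This comparison uses other libraries than the one without LPS.

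Abca1 had 2106, 2205 and 2021 CPM in MOPS with LPS, against 1887, 1710.2 and 1714 CPM in HEPES with LPS. The groups stayed apart, with a log2 change of 0.25 ± 0.047 (edgeR adjusted p = 4.51e-05). Abcg1 had 70.1, 77.1 and 78.2 CPM in MOPS with LPS, against 47.7, 56.1 and 55.3 CPM in HEPES with LPS, a log2 change of 0.50 ± 0.061 (edgeR adjusted p = 7.90e-08). Every MOPS library with LPS exceeded every HEPES library with LPS for both transporters. Apoe had 9077, 9043 and 10122 CPM in MOPS with LPS, against 15162, 15630.2 and 16171 CPM in HEPES with LPS. It was 1.66-fold lower (log2 change -0.73 ± 0.043, edgeR adjusted p = 4.94e-15).

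Nr1h3 had 10.8, 11.9 and 16.8 CPM in MOPS with LPS, against 10.8, 14.5 and 10.9 CPM in HEPES with LPS. The groups overlapped, and the log2 difference was 0.12 ± 0.16 (edgeR adjusted p = 0.576). Without library 9 of MOPS with LPS, the one at 16.8 CPM, the difference was -0.09.

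Mylip carried the largest rise of the 10 in this comparison. It had 191, 196 and 181 CPM in MOPS with LPS, against 73.0, 67.3 and 71.6 CPM in HEPES with LPS, or 2.68-fold more (log2 change 1.42 ± 0.046, edgeR adjusted p = 1.33e-21). Lpcat3 had 107, 102 and 107 CPM in MOPS with LPS, against 65.2, 57.3 and 64.0 CPM in HEPES with LPS, a log2 change of 0.76 ± 0.049 (edgeR adjusted p = 2.86e-14). Neither gene had overlapping groups.

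Of the lipogenic genes, Srebf1 had 84.7, 80.9 and 87.9 CPM in MOPS with LPS, against 117, 108 and 111 CPM in HEPES with LPS (log2 change -0.41 ± 0.049, edgeR adjusted p = 2.56e-08). Fasn had 20.6, 20.003 and 18.6 CPM in MOPS with LPS, against 48.5, 44.4 and 53.0 CPM in HEPES with LPS (log2 change -1.30 ± 0.067, edgeR adjusted p = 1.08e-16). For both, all MOPS libraries with LPS were the lower ones. Scd1 had 9.25, 8.23 and 9.15 CPM in MOPS with LPS, against 11.5, 13.2 and 13.7 CPM in HEPES with LPS (log2 change -0.53 ± 0.11, edgeR adjusted p = 1.54e-04). Scd2 had 9.82, 9.84 and 11.96 CPM in MOPS with LPS, against 23.7, 28.2 and 33.2 CPM in HEPES with LPS (log2 change -1.43 ± 0.15, edgeR adjusted p = 1.53e-05). The desaturase groups did not overlap either.

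**Figure D3:**
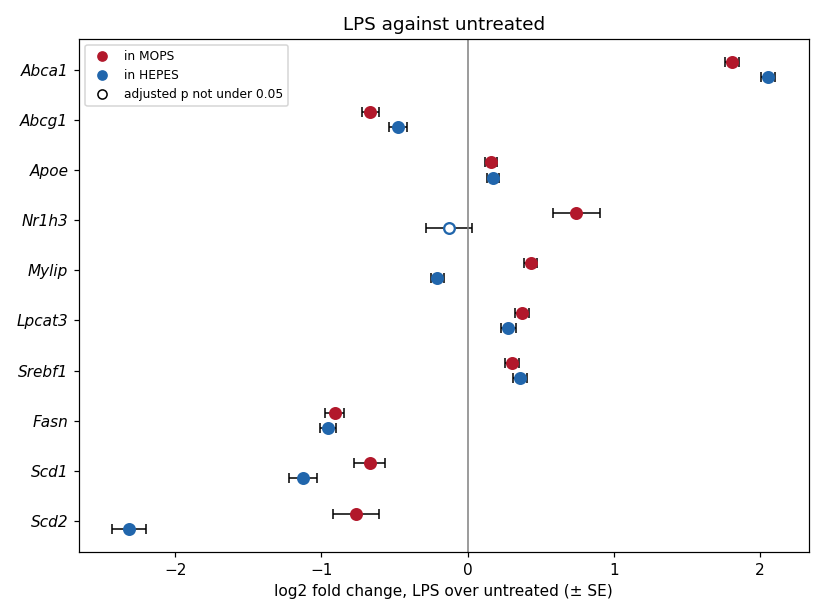
Log2 change of LPS over untreated cells (horizontal axis) for each of the 10 genes, in MOPS above and in HEPES below, with bars for the SE and filled points for an adjusted p under 0.05. Abca1 stands far to the right in both media and Abcg1, Fasn, Scd1 and Scd2 to the left; the small rises of Apoe, Srebf1 and Lpcat3 in both media, and of Mylip in MOPS, turn negative when libraries are scaled by their totals alone.

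With LPS, Abca1 rose in both media, and Abcg1, Fasn, Scd1 and Scd2 fell in both. Abca1 was 3.51-fold higher with LPS in MOPS and 4.16-fold higher with LPS in HEPES, and these directions held under every scaling tried. In MOPS, 6 of the 10 genes rose and 4 fell, where 69.0% of all genes tested passed, 34.1% higher and 34.9% lower. In HEPES, 4 rose and 5 fell, where 76.9% of all genes passed, 35.6% higher and 41.2% lower. LPS and untreated libraries did not overlap for 10 of the 10 genes in MOPS and 9 in HEPES, as for 71.8% and 78.4% of all genes tested. Scaling by library totals alone moved the median of all genes by -0.51 in MOPS and -0.58 in HEPES on the log2 scale, and the counts of the 10 genes became 1 higher and 7 lower in MOPS, and 1 higher and 9 lower in HEPES.

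Abca1 averaged 2111 ± 92.0 CPM with LPS and 602 ± 8.76 CPM without it in MOPS (SD, n = 3 each), a log2 change of 1.81 ± 0.048 (SE; edgeR adjusted p = 6.07e-22). In HEPES the means were 1770.4 ± 101 CPM with LPS and 426 ± 31.2 CPM without it, a log2 change of 2.06 ± 0.049 (edgeR adjusted p = 2.72e-23). Abcg1, the other LXR-driven sterol transporter, went the opposite way. It averaged 75.1 ± 4.39 CPM with LPS and 119 ± 2.35 CPM without it in MOPS (log2 change -0.67 ± 0.057, edgeR adjusted p = 4.30e-11), and 53.0 ± 4.66 CPM with LPS and 73.8 ± 5.61 CPM without it in HEPES (log2 change -0.48 ± 0.060, edgeR adjusted p = 4.99e-08).

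The ratio of Abcg1 to Abca1 per kilobase of exon, which needs no scaling between libraries, was lower with LPS in both media. The ratio restates the counts above, and its fall alone does not tell which gene moved. In MOPS the ratio was 0.0848 to 0.0986 with LPS and 0.501 to 0.507 without LPS. In HEPES it was 0.0644 to 0.0837 with LPS and 0.399 to 0.467 without LPS. The ranges were far apart in both media (exact two-sided permutation p = 0.1 in each, the smallest that 3 against 3 can give). The medium ranges did not overlap either, MOPS lying above HEPES with LPS and without it (exact permutation p = 0.1 in each).

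Fasn averaged 19.7 ± 1.05 CPM with LPS and 37.1 ± 1.26 CPM without it in MOPS, and 48.6 ± 4.29 CPM with LPS and 94.2 ± 5.07 CPM without it in HEPES. The fall was 1.88-fold in MOPS (log2 change -0.91 ± 0.066, edgeR adjusted p = 1.74e-13) and 1.94-fold in HEPES (log2 change -0.96 ± 0.056, edgeR adjusted p = 4.41e-16). Scd1 averaged 8.88 ± 0.565 CPM with LPS and 14.1 ± 1.10 CPM without it in MOPS (log2 change -0.67 ± 0.11, edgeR adjusted p = 1.72e-06). In HEPES it averaged 12.8 ± 1.13 CPM with LPS and 28.0 ± 3.81 CPM without it (log2 change -1.12 ± 0.094, edgeR adjusted p = 4.55e-12).

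Scd2 fell by 0.76 ± 0.16 on the log2 scale in MOPS (edgeR adjusted p = 0.00139), with means of 10.5 ± 1.23 CPM with LPS and 17.8 ± 1.30 CPM without it. In HEPES it fell by 2.31 ± 0.12 (edgeR adjusted p = 7.81e-09), with means of 28.3 ± 4.74 CPM with LPS and 141 ± 14.5 CPM without it, a level 4.98-fold lower. The lowest of the 4 group means was that of MOPS with LPS for Fasn, Scd1 and Scd2 alike.

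The LPS changes of Lpcat3, Srebf1 and Apoe changed sign with the scaling. Lpcat3 rose by 0.37 ± 0.047 on the log2 scale in MOPS (edgeR adjusted p = 3.74e-08) and by 0.28 ± 0.051 in HEPES (edgeR adjusted p = 1.20e-05), but was -0.14 and -0.31 with library totals alone. Srebf1 rose by 0.30 ± 0.050 in MOPS (edgeR adjusted p = 2.91e-06) and by 0.36 ± 0.048 in HEPES (edgeR adjusted p = 7.93e-08), but was -0.21 and -0.23 with library totals alone. Apoe rose 1.12-fold in MOPS (edgeR adjusted p = 0.00171) and 1.13-fold in HEPES (edgeR adjusted p = 5.77e-04), but its log2 change was -0.35 and -0.41 with library totals alone. Of the 10 genes Apoe had the smallest LPS change in MOPS, a log2 change of 0.16 with all libraries and of 0.10 without library 9 of MOPS with LPS.

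Mylip was the one member called in opposite directions with LPS in the 2 media, though not with library totals alone. It averaged 189 ± 7.75 CPM with LPS and 140.3 ± 6.54 CPM without it in MOPS (log2 change 0.43 ± 0.043, edgeR adjusted p = 2.85e-10), which became -0.08 with library totals alone. In HEPES it averaged 70.6 ± 3.02 CPM with LPS and 81.5 ± 2.03 CPM without it (log2 change -0.21 ± 0.047, edgeR adjusted p = 2.24e-04), and the change was -0.13 without library 11 of HEPES with LPS. Nr1h3 rose 1.67-fold with LPS in MOPS, with means of 13.2 ± 3.17 CPM with LPS and 7.84 ± 1.40 CPM without it (log2 change 0.74 ± 0.16, edgeR adjusted p = 8.06e-04). In HEPES its means were 12.1 ± 2.08 CPM with LPS and 13.2 ± 0.228 CPM without it, the groups overlapped, and the log2 difference was -0.13 ± 0.16 (edgeR adjusted p = 0.471). With library totals alone the Nr1h3 change in MOPS was 0.23 (edgeR adjusted p = 0.211).

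Whether the LPS change itself differed between the media was tested by the interaction, the log2 change with LPS in MOPS less the one in HEPES. Of the 10 genes, 4 were higher and 1 was lower, where 39.4% of all genes tested passed, 21.9% higher and 17.6% lower. Scd2 had the largest difference at 1.55 ± 0.20 (edgeR adjusted p = 1.23e-04), its fall with LPS being smaller in MOPS, where its level without LPS was already 17.8 CPM. Nr1h3 differed by 0.87 ± 0.23 (edgeR adjusted p = 0.00607), Mylip by 0.64 ± 0.064 (edgeR adjusted p = 2.17e-09) and Scd1 by 0.45 ± 0.14 (edgeR adjusted p = 0.0117). The Scd1 call was lost without library 7 of MOPS with LPS (0.37, edgeR adjusted p = 0.0608) or library 10 of HEPES with LPS (0.34, edgeR adjusted p = 0.0740). Abca1 rose less with LPS in MOPS than in HEPES, by -0.24 ± 0.066 (edgeR adjusted p = 0.0043).

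For the other 5 genes the interaction did not pass the test. The differences were -0.19 ± 0.082 for Abcg1 (edgeR adjusted p = 0.0725), 0.09 ± 0.069 for Lpcat3 (edgeR adjusted p = 0.309), -0.02 ± 0.061 for Apoe (edgeR adjusted p = 0.873), -0.05 ± 0.069 for Srebf1 (edgeR adjusted p = 0.589) and 0.05 ± 0.088 for Fasn (edgeR adjusted p = 0.723). The Abcg1 value passed without library 5 of HEPES, library 8 of MOPS with LPS or library 10 of HEPES with LPS.

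The balance between the desaturases shifted with the medium. Scd1 made up 48.8% ± 2.61 of the summed Scd1 and Scd2 level per kilobase in MOPS with LPS, against 34.0% ± 1.94 in HEPES with LPS. Without LPS the share was 47.2% ± 2.11 in MOPS and 18.3% ± 0.560 in HEPES (SD, n = 3 each). The medium groups did not overlap with or without LPS, nor did LPS and untreated libraries in HEPES (exact two-sided permutation p = 0.1 in each, the smallest possible). In MOPS, the shares of 46.3% to 51.5% with LPS overlapped those of 44.98% to 49.2% without it (exact permutation p = 0.5, in a design whose smallest p is 0.1).

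**Figure D4:**
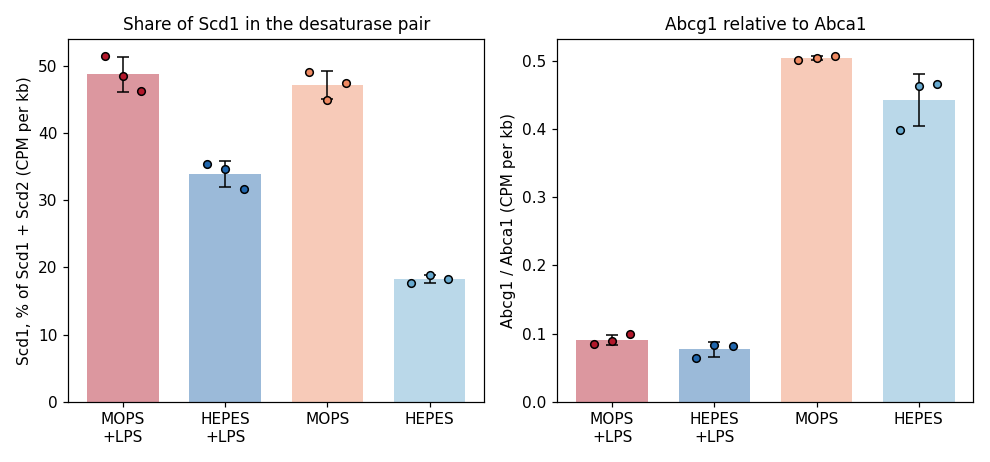
Scd1 as a percent of Scd1 plus Scd2 and the ratio of Abcg1 to Abca1, both per kilobase of exon, in the 4 groups. Bars show means, error bars the SD and points the 3 libraries of a group, on linear axes starting at 0. The Scd1 share averages 18.3% in HEPES without LPS and 34.0% to 48.8% in the other groups. Over both media, the ratio of the transporters runs from 0.0644 to 0.0986 with LPS and from 0.399 to 0.507 without it.

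Compared per kilobase of exon, Apoe led the 10 genes in every group, with means of 4403 CPM per kb in MOPS with LPS, 7322 in HEPES with LPS, 3945 in MOPS and 6492 in HEPES. It held place 7, 3, 5 and 4 in those groups among all genes tested. Abca1 came second at 204, 171, 58.1 and 41.1 CPM per kb in the same groups. In MOPS with LPS the order then ran Mylip (58.5), Lpcat3 (32.3), Abcg1 (18.5), Srebf1 (14.996) and Nr1h3 (5.23), with Scd2, Scd1 and Fasn at 1.803 to 1.93 and overlapping. In HEPES with LPS it ran Mylip (21.9), Srebf1 (19.9), Lpcat3 (19.0), Abcg1 (13.04), Scd2 (5.20), Nr1h3 (4.80), Fasn (4.44) and Scd1 (2.65). Mylip and Srebf1, and likewise Srebf1 and Lpcat3, overlapped there, as did Scd2, Nr1h3 and Fasn.

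In MOPS without LPS, Mylip (43.4), Abcg1 (29.3), Lpcat3 (24.9) and Srebf1 (12.1) followed Abca1, and Fasn, Scd2, Nr1h3 and Scd1 lay at 2.93 to 3.39 CPM per kb with neighbours overlapping. In HEPES without LPS, Scd2 (25.9) and Mylip (25.2) came next with overlapping libraries. Abcg1 (18.2), Lpcat3 (15.7) and Srebf1 (15.5) followed, the last 2 overlapping, and then Fasn (8.61), with Scd1 (5.79) and Nr1h3 (5.25) overlapping at the end. Scd2 thus held place 3 of the 10 in HEPES and place 8 in MOPS.

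Among the receptor's partners, the RXR genes differed from each other. Rxra averaged 195 ± 4.77 CPM in MOPS, against 238 ± 9.60 CPM in HEPES without LPS (log2 change -0.29 ± 0.040, edgeR adjusted p = 4.46e-07). With LPS it averaged 100.2 ± 4.36 CPM in MOPS, against 53.4 ± 0.511 CPM in HEPES (log2 change 0.91 ± 0.046, edgeR adjusted p = 7.82e-17). The log2 LPS change of Rxra was -0.96 in MOPS and -2.15 in HEPES, and the interaction was 1.19 ± 0.061 (edgeR adjusted p = 1.08e-15). Rxrb was higher in MOPS with LPS (log2 change 0.66 ± 0.056, edgeR adjusted p = 1.43e-11) and without it (0.57 ± 0.047, edgeR adjusted p = 1.02e-11). Of the 12 receptor, partner and cofactor genes, 6 rose and 3 fell in MOPS without LPS (median log2 change 0.09) and 6 rose and 2 fell in MOPS with LPS (0.23). The median over all genes tested was -0.01 without LPS and 0.00 with LPS, and 49.7% of all genes passed without LPS and 53.8% with LPS, which is the background for this list and those that follow.

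Other known LXR targets did not share 1 direction. Of 11 tested genes of 13 listed, 4 rose and 4 fell in MOPS without LPS (median log2 change 0.02), beside 49.7% of all genes that passed. With LPS 6 rose and 3 fell (0.49), beside 53.8%. Pltp, the phospholipid transfer protein, averaged 408 ± 7.10 CPM in MOPS, against 212 ± 3.44 CPM in HEPES with LPS, and 390 ± 10.98 CPM in MOPS, against 227 ± 3.80 CPM in HEPES without it. It was higher in MOPS in both comparisons (log2 change 0.94 ± 0.037 with LPS, edgeR adjusted p = 8.30e-20, and 0.78 ± 0.036 without LPS, edgeR adjusted p = 7.56e-18). Cd5l, a secreted macrophage protein, was lower in MOPS without LPS, at 92.0 ± 9.96 CPM in MOPS, against 252 ± 8.94 CPM in HEPES (log2 change -1.45 ± 0.13, edgeR adjusted p = 1.53e-05). Mertk, a receptor for dead cells, averaged 129 ± 7.35 CPM in MOPS, against 63.2 ± 2.42 CPM in HEPES with LPS (log2 change 1.03 ± 0.050, edgeR adjusted p = 1.98e-17).

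Of the genes that make or move sterols, 17 of 19 listed were tested, and 4 rose and 6 fell in MOPS without LPS (median -0.06), while 8 rose and 5 fell with LPS (0.17). Lipa, the lysosomal acid lipase that frees cholesterol from its esters, averaged 2903 ± 33.4 CPM in MOPS, against 1388 ± 32.5 CPM in HEPES without LPS (log2 change 1.06 ± 0.042, edgeR adjusted p = 3.77e-19). Ch25h, which makes the LXR ligand 25-hydroxycholesterol, averaged 33.9 ± 3.42 CPM in MOPS, against 208 ± 15.1 CPM in HEPES with LPS (log2 change -2.62 ± 0.065, edgeR adjusted p = 1.18e-21), and was at 0.0757 CPM in MOPS, against 0.197 CPM in HEPES without LPS. All 15 sterol synthesis genes fell in MOPS without LPS (median -2.16), and with LPS 1 rose and 13 fell (-1.86).

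Among the lipoprotein receptors whose proteins MYLIP is known to mark for degradation, and their relatives, 3 of 5 listed were tested. Lrp8, a receptor for apolipoprotein E, was higher in MOPS, with a log2 change of 1.59 ± 0.087 with LPS (edgeR adjusted p = 5.50e-16) and 0.94 ± 0.078 without it (edgeR adjusted p = 1.12e-11). Without LPS 1 of the 3 rose and 2 fell, and with LPS 1 rose and 1 fell. These are message levels, and degradation of the proteins was not measured.

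The other genes of fatty acid synthesis and desaturation did not fall together. Of 20 tested genes of 23 listed, 5 rose and 10 fell in MOPS without LPS (median -0.13), and 9 rose and 5 fell with LPS (0.16), where 49.7% and 53.8% of all genes passed. Acaca, the carboxylase that supplies Fasn with malonyl-CoA, averaged 102 ± 7.99 CPM in MOPS, against 55.1 ± 1.15 CPM in HEPES with LPS (log2 change 0.89 ± 0.051, edgeR adjusted p = 1.91e-15). Without LPS it averaged 163 ± 7.18 CPM in MOPS, against 153 ± 3.17 CPM in HEPES, a log2 difference of 0.08 ± 0.046 (edgeR adjusted p = 0.139). Me1, a source of NADPH for Fasn, rose in MOPS without LPS (log2 change 1.20 ± 0.096, edgeR adjusted p = 4.74e-12). Fads2, the desaturase of polyunsaturated fats, averaged 0.150 ± 0.119 CPM in MOPS, against 3.11 ± 0.213 CPM in HEPES without LPS, a low level in both media (edgeR adjusted p = 1.09e-12).

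Of the 9 genes that control SREBP, 2 rose and 3 fell in MOPS without LPS (median -0.12), and 2 rose and 2 fell with LPS (-0.09). Insig1, which holds SREBP in the endoplasmic reticulum, fell by 1.53 ± 0.045 without LPS (edgeR adjusted p = 1.05e-22), and Srebf2, the gene of the sterol-driving SREBP-2, fell by 1.17 ± 0.042 (edgeR adjusted p = 1.76e-20), both on the log2 scale. Of 6 tested phospholipid remodelling genes of 7 listed, 2 rose and 3 fell without LPS (median -0.25), and 2 rose and 1 fell with LPS (0.02). Pla2g4a, the cytosolic phospholipase that releases arachidonate, rose by 1.005 ± 0.052 on the log2 scale without LPS (edgeR adjusted p = 1.25e-16).

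With LPS against untreated cells, 2 of the 12 receptor and cofactor genes rose and 8 fell in MOPS, and 2 rose and 10 fell in HEPES, where the medians were -0.40 and -0.44 beside -0.03 and -0.08 over all genes. Of all genes tested 69.0% passed in MOPS and 76.9% in HEPES. Of the 20 fatty acid synthesis genes 6 rose and 7 fell in MOPS, and 6 rose and 12 fell in HEPES (medians -0.07 and -0.67). Lpin1, a phosphatidate phosphatase, fell, with log2 changes of -2.40 in MOPS and -3.91 in HEPES. Of the other LXR targets 3 rose and 2 fell in MOPS, and 2 rose and 5 fell in HEPES (medians 0.07 and -0.18). Tgm2, a transglutaminase, rose by 2.17 and 2.38 in those media. These counts carry the shift of all genes given above for library totals alone.

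By correlation of log2 CPM over the 12 libraries, the protein-coding genes most like Abca1 were Creb3l2, Lpin2 and Chd1, each with Pearson's r of 0.998. Those most like Mylip were Prex1 (0.993), Dapk1 (0.990) and Il21r (0.989), and those most like Apoe were Rsu1 (0.988), Cltb (0.988) and Hmgcs1 (0.987). For Srebf1 they were Elovl1 (0.986), Grap (0.981) and Qsox2 (0.978), and for Fasn they were Tln1 (0.994), Siglec1 (0.986) and Trpv2 (0.984). The gene nearest to Scd2 was Gusb (0.996), that nearest to Scd1 was Lamtor1 (0.983), and that nearest to Lpcat3 was Eno1 (0.993). Pgls was nearest to Abcg1 (0.978), and Nr1h3 had no closer gene than Sdhc (0.900). The libraries fall into 4 groups, so each r mainly follows 4 group means, and 7957 genes were compared for each member.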

How the data were processed

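Per the labels' protocols, libraries were prepared from Trizol RNA with the NEBNext Ultra RNA kit. Per the submitters' processing notes, CASAVA 1.8, HISAT2 2.0.5, featureCounts 1.5.0-p3 and the build mm10 were used. Neither annotation release nor strand setting is stated there. Per the file headers, the deposited table holds raw counts per gene and library, and FPKM values made by the authors. These FPKM values equalled count divided by gene length and a library factor within 0.1%, and served only as an alternative. GENCODE vM21 held 54409 of the 54532 gene IDs, 98.3% of them at the same coordinates.

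Counts were analysed with edgeR 4.0.16 in R 4.3.3 (filterByExpr, TMM, robust quasi-likelihood fit of 4 group means, 8 residual degrees of freedom, all 12 libraries), with Benjamini-Hochberg adjustment over 14506 genes. SEs were taken as the log2 change over the square root of F. The common biological coefficient of variation was 4.62%. Library pairs within groups differed by more than counting error, with chi-square per degree of freedom from 2.66 to 6.54. The procedure was tested on simulated data.

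Alternatives were other scalings (RLE factors, library totals, upper quartile), no filter, DESeq2 1.42.0, limma 3.58.1 on log2(FPKM + 1), the 2 compared groups alone, and leaving out each library. The 10 genes, the companion lists and the tests were chosen with earlier results of these data known. Named were the 10 genes, up to 4 called genes of a list and comparison with the smallest p, and the 3 genes most like each member with a mean of at least 10 CPM. Other named genes (Nr1h2 without LPS, Acaca without LPS, Ch25h without LPS) were chosen after their values were seen.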

Additional observations from a re-analysis of the deposited data

Results flagged for a closer look

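For 5 of the 10 genes the LPS change differed between MOPS and HEPES by the interaction test of edgeR, given as the log2 change with LPS in MOPS less the one in HEPES. Of all genes tested, 39.4% passed the same test. Scd2 differed by 1.55 (adjusted p = 1.23e-04), its fall with LPS being smaller in MOPS. Nr1h3 differed by 0.87 (adjusted p = 0.00607), having risen in MOPS, while LPS and untreated libraries overlapped in HEPES. Mylip differed by 0.64 (adjusted p = 2.17e-09), having risen in MOPS, except with library totals alone, and fallen in HEPES. Scd1 differed by 0.45 (adjusted p = 0.0117), its fall being smaller in MOPS, and this call was lost without library 7 of MOPS with LPS (adjusted p = 0.0608) or library 10 of HEPES with LPS (adjusted p = 0.0740). Abca1 differed by -0.24 (adjusted p = 0.0043), its rise being smaller in MOPS.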

How the results depend on the processing

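No medium call of the 10 genes changed under any alternative run, with or without LPS. The LPS results depended on the scaling. With library totals alone, the LPS comparison in MOPS called 2084 genes higher and 9506 lower, with 1 of the 10 genes higher and 7 lower. In HEPES it called 2502 higher and 9666 lower, with 1 of the 10 higher and 9 lower. The share of higher calls then was 17.98% against 49.4% with TMM in MOPS, 20.6% against 46.3% in HEPES, 62.4% against 50.04% for the medium with LPS and 66.4% against 55.5% for the interaction. With upper-quartile factors it was 38.5% in MOPS and 38.3% in HEPES for LPS. Log2 LPS changes that turned negative with library totals were, in MOPS, -0.14 for Lpcat3, -0.21 for Srebf1, -0.082 for Mylip and -0.35 for Apoe, and in HEPES -0.31 for Lpcat3, -0.23 for Srebf1 and -0.41 for Apoe. With upper-quartile factors Apoe was at 0.02 in both media (edgeR adjusted p = 0.723 and 0.613). Nr1h3 in HEPES was called at -0.71 with library totals (edgeR adjusted p = 6.17e-04). For the interaction, members called lower numbered 2 with RLE factors and 2 with DESeq2, Abcg1 being the second at -0.23 in each, and 1 to 2 with 1 library left out, when 3 to 4 were called higher. Uncalled interactions near 0 changed sign: Srebf1 was 0.019 and Apoe 0.057 with library totals, and Apoe was 0.0076 without the filter. With 1 library left out they ranged from -0.084 to 0.011 for Apoe, -0.061 to 0.085 for Fasn and -0.0093 to 0.11 for Lpcat3, and Nr1h3 for the medium with LPS from -0.088 to 0.23. The cause was not tested, beyond the shift of all genes that library totals bring. No paired analysis was possible because the libraries are numbered 1 to 12 and no groups share a number. At these depths Nr1h3, Scd1 and Scd2 had the widest errors of the 10. They also had the fewest counts, except that Scd2 had 3684 to 4327 counts in HEPES without LPS.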
